A study of Homo sapiens with 9 samples.

Results

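The dual-specificity tyrosine-regulated kinases (DYRK) and the CDC2-like kinases (CLK) are 2 related families of the CMGC branch of protein kinases. Their 9 genes, *DYRK1A*, *DYRK1B*, *DYRK2*, *DYRK3*, *DYRK4*, *CLK1*, *CLK2*, *CLK3* and *CLK4*, were followed in RNA-seq of SET2 cells in which *DYRK1A* had been knocked out (KO), to ask whether the level of the other 8 genes differed once DYRK1A was lost. They were picked out by gene symbol and are 9 of the 60662 genes in the count table. All 9 were expressed highly enough to be tested in every comparison, among 17080 genes tested for KO versus WT.

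SET2 is a *JAK2*-mutant megakaryoblastic line, described in the labels as acute myeloid leukemia that followed a myeloproliferative neoplasm. The 9 libraries were untreated WT cells (n = 3), untreated *DYRK1A* KO clone 11H1 (n = 3) and untreated *DYRK1A* KO clone 14B5 (n = 3). Each clone grew from 1 sorted cell after delivery of Cas9 protein with a *DYRK1A* guide RNA and was kept because its only edits were out-of-frame indels, whereas the WT libraries came from cells that had not been through single-cell cloning. Loss of *DYRK1A* and the history of a clone therefore cannot be told apart, the 6 KO libraries represent 2 clones, and nothing in the labels says whether libraries of a group came from separate cultures, so p values measure the spread between these libraries.

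Libraries held between 32347779 and 60272245 expected counts, and the share of mitochondrially encoded genes was highest in 11H1 (7.23% to 7.39%), beside 3.54% to 6.03% for WT and 3.30% to 3.92% for 14B5. Of 12 megakaryoblast markers, 9 were at 10 CPM (counts scaled to library size) or more in every library, among them *GATA1*, *GATA2* and *ITGA2B*. The summed level of the 12 was 3210 to 3348 CPM in WT, 2614 to 2715 in 11H1 and 2544 to 2602 in 14B5. Several well-expressed markers were far lower in the clones. Mean *CD34* was 271 CPM in WT, 100 in 11H1 and 48.4 in 14B5, and *FLI1* 184, 118 and 86.3. *ITGB3* was at 54.9, 20.3 and 5.77 CPM, and *GP9* at 22.2, 4.27 and 0.804. *PF4*, at only 0.461 to 0.559 CPM in WT, had no count in any KO library. Of 19 markers of other cells, 14 stayed under 6 CPM in every library, *MS4A1* of B cells among them, while *CD4*, *LYZ*, *CD79A*, *KRT18* and *PECAM1* were expressed. The summed level of these 19 markers was lower in the clones too, at 786 to 825 CPM in WT, 515 to 527 in 11H1 and 538 to 561 in 14B5. At an adjusted p under 0.05 (edgeR), 3 of the 12 megakaryoblast markers were higher in 11H1 than in WT and 9 were lower. For 14B5 the numbers were 2 and 8, and *GATA2* and *TAL1* rose in both clones. The lower sums were thus not confined to the 12 listed megakaryoblast markers. Among the 19, mean *PECAM1* was 349 CPM in WT, 196 in 11H1 and 166 in 14B5, and *LYZ* 196, 104 and 117. *CD4* was at 192, 183 and 236 CPM. A sum led by so few genes does not show to which lineage the fall belongs. The part that these marker differences play in the results below was not tested.

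DYRK kinases phosphorylate a tyrosine of their own activation loop while they are being made and then act on serines and threonines of other proteins. DYRK1A and its closest relative DYRK1B hold cells in quiescence, in part by phosphorylating LIN52 of the cell cycle repressor complex DREAM and by destabilizing D-type cyclins. DYRK2 serves ubiquitin ligase complexes, DYRK3 dissolves membraneless granules and acts in erythroid cells, and DYRK4 is best known from testis. CLK kinases sit in the nucleus and phosphorylate SR proteins, the serine- and arginine-rich factors that select exons. Their own transcripts are a known target of splicing control, with introns that can be retained in the nucleus.

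The sequences upstream of *CLK2* and *DYRK3* are shown first because these were the 2 genes with a higher level in both KO clones. They come from RefSeq (GRCh38.p14), are read 5′ to 3′ on the strand of the gene, and carry in capitals each GC box, the letters GGGCGG on either strand. The *CLK2* stretch is chr1:155273517-155273754 on the minus strand, which lies within the longer GENCODE span of *CLK2*. It leaves out the last 12 bases before the RefSeq start because an exon of *CLK2* covers them there. The *DYRK3* stretch is chr1:206635286-206635535 on the plus strand, which ends at the base before the gene and overlaps no annotated exon.
CLK2: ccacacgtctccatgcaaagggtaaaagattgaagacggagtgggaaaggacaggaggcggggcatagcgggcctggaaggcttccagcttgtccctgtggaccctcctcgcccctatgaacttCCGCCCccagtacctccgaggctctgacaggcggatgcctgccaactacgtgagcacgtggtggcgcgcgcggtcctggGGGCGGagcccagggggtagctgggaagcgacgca
DYRK3: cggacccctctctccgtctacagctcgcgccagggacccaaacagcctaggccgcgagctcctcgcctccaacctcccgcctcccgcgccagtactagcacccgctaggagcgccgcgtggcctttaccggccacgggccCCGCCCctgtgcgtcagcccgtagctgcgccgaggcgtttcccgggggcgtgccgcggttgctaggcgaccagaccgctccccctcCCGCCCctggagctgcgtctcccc

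RefSeq held 250 upstream bases for 8 of the 9 genes, *DYRK2* having no entry. The GC box was present upstream of 5 of the 8, *DYRK1B*, *DYRK3*, *CLK1*, *CLK2* and *CLK4*, and of 42.6% of all 35116 promoters. It was absent upstream of the RefSeq starts used for *DYRK1A*, *DYRK4* and *CLK3*. For *DYRK4*, *CLK3* and *CLK4*, as for *CLK2*, the stretch searched lies within the longer GENCODE span of the gene. Sequence before other starts of these genes was not searched. The E2F letters TTTGGCGC (0.55% of promoters), the STAT letters TTCNNNGAA (6.57%) and the CRE letters TGACGTCA (1.65%), each searched on both strands, matched none of the 8.

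The cell cycle homology region (CHR) letters TTTGAA, an element to which DREAM binds, were searched because DYRK1A acts on that complex. They occurred upstream of 13.3% of all promoters and of 1 of the 8 genes, *CLK1*, where the match begins 226 bases before the RefSeq start and overlaps no GC box. The match is in capitals, on the opposite strand, in chr2:200864869-200864894 (minus strand), and a match of letters is a description of the sequence and not of binding.
CLK1: tgttctagagTTCAAAaactatcagt

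*DYRK1A* itself (ENSG00000157540.21; GRCh38, chr21:37365573-37526358, plus strand) was still transcribed in both clones. Its level was 197, 196 and 218 CPM in WT, 188, 191 and 192 CPM in 11H1, and 191, 182 and 174 CPM in 14B5. All 6 KO values were under the lowest WT value, by a small margin. The difference was −0.13 ± 0.0586 (log2, SE; 95% interval −0.26 to 0.00314; n = 6 versus 3) and did not pass the test (edgeR quasi-likelihood, adjusted p = 0.126), while the 2-sided exact permutation test gave the smallest p that 84 splits allow, 0.0119. In 14B5 versus WT *DYRK1A* fell by 0.17 ± 0.0578 (log2, adjusted p = 0.0278), and in 11H1 versus WT the difference was −0.09 ± 0.0503 (adjusted p = 0.131). The clones were not shown to differ (11H1 minus 14B5 0.07 ± 0.0452, adjusted p = 0.216). The call in 14B5 was lost without WT library 3 (−0.11, adjusted p = 0.138), 14B5 library 2 (0.114) or 14B5 library 3 (0.104), and without a filter on low counts (0.072). Gene-level counts cannot show a frameshift, so the level of this transcript neither checks the genotype labels nor reports the amount of protein.

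Most of the 9 genes differed little between the groups, and a few differed beyond the spread of the libraries. KO versus WT called 2 of 9 genes, *DYRK3* and *CLK2*, both higher, against 32.0% of all genes tested (14.3% higher and 17.7% lower), and KO and WT libraries did not overlap for 3 of 9 genes against 36.6% of all. In 11H1 versus WT 4 of 9 were called, all higher (*DYRK1B*, *DYRK3*, *CLK2* and *CLK4*), against 64.6% of genes (31.8% higher and 32.8% lower). In 14B5 versus WT 4 of 9 were called, *DYRK3* and *CLK2* higher and *DYRK1A* and *CLK3* lower, against 53.5% (24.9% higher and 28.7% lower). Counting both directions, the called share of the 9 genes lay below the background in each of these comparisons. Counting rises alone, it lay above the background for the pooled clones (2 of 9, background 14.3%) and for 11H1 (4 of 9, background 31.8%). For 14B5 it lay below (2 of 9, background 24.9%). With only 9 genes, 1 gene more or fewer shifts such a share widely, and these gaps were not tested. The median absolute log2 difference of the 9 genes was 0.13 in KO versus WT, 0.12 in 11H1 and 0.17 in 14B5. Over all genes tested it was 0.27, 0.35 and 0.26. This background was not matched for expression level, so the gap does not show that these 9 genes are unusually stable. The comparisons share the 3 WT libraries, and the medians of all genes stayed within 0.022 of 0.

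**Figure D1:**
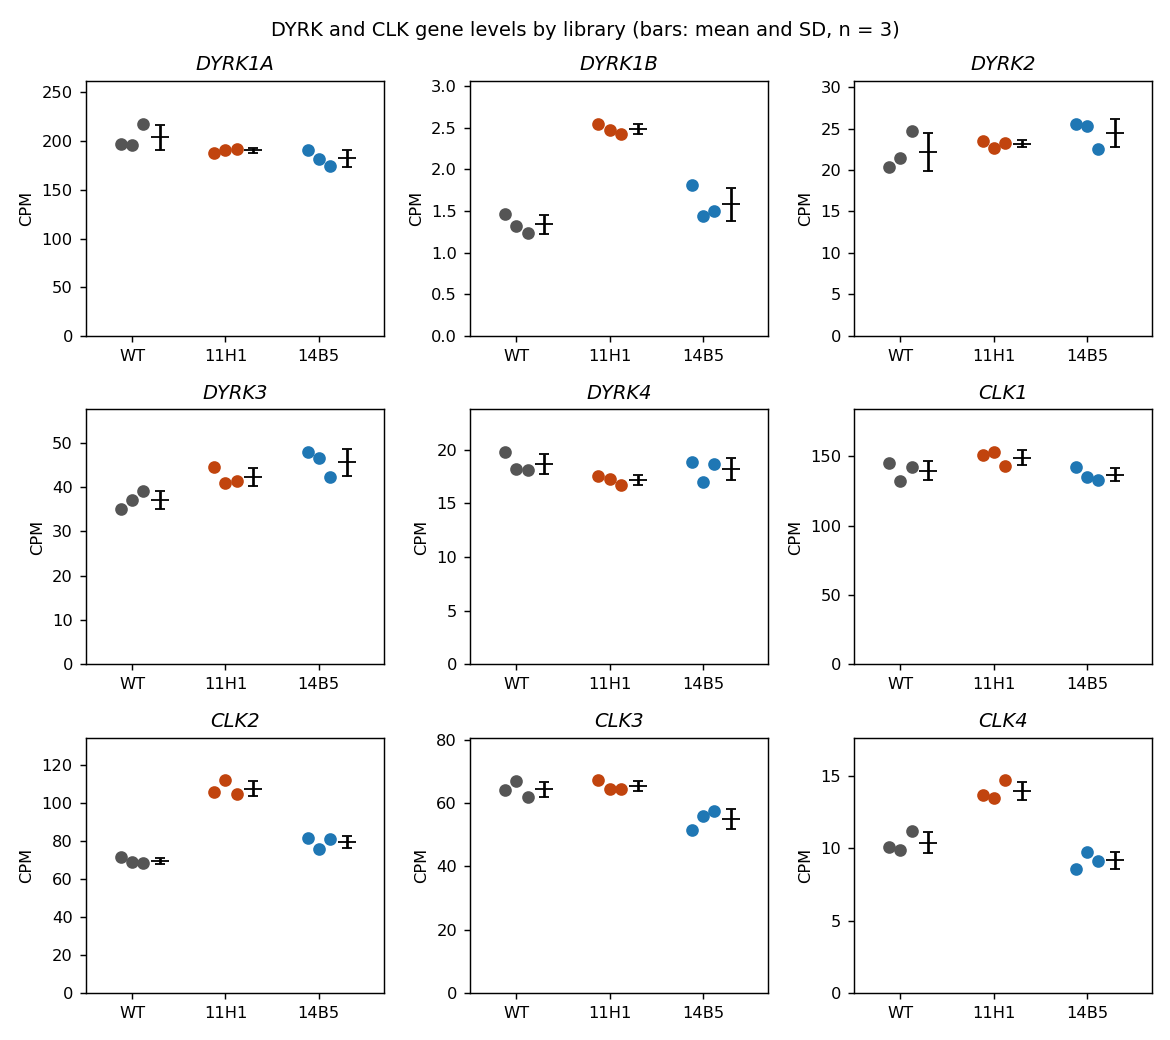
CPM of each gene (y axis, from 0, its own scale per panel) in the 3 WT, 3 11H1 and 3 14B5 libraries (points), with the group mean and SD beside them. *CLK2* lies at 68.5 to 71.6 CPM in WT and 105 to 112 CPM in 11H1 with 14B5 between them, *DYRK3* is higher in both clones, and *DYRK1A* remains at 174 CPM or more in every KO library.

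*DYRK1B*, the nearest relative of DYRK1A (ENSG00000105204.14; chr19:39825350-39834201, minus strand), rose in clone 11H1. It was the lowest of the 9 genes, with 51 to 139 counts per library. Its level was 1.46, 1.32 and 1.24 CPM in WT, 2.55, 2.47 and 2.43 CPM in 11H1, and 1.81, 1.44 and 1.5 CPM in 14B5. All 11H1 libraries lay above all others, and 14B5 overlapped WT. *DYRK1B* was 1.86-fold higher in 11H1 (log2 0.89 ± 0.147, 95% interval 0.57 to 1.21, adjusted p = 0.000201). In 14B5 the difference was 0.21 ± 0.158 (−0.14 to 0.56, adjusted p = 0.292), and 11H1 exceeded 14B5 by 0.67 ± 0.152 (adjusted p = 0.00226). With both clones pooled the difference of 0.59 ± 0.233 did not pass the test (adjusted p = 0.0793), and it did pass when 14B5 library 2 (adjusted p = 0.0427) or 14B5 library 3 (adjusted p = 0.0483) was left out.

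*DYRK3* (ENSG00000143479.17; chr1:206635536-206684419, plus strand) was higher in both clones. Its level was 35.0, 37.1 and 39.1 CPM in WT, 44.5, 40.8 and 41.3 CPM in 11H1, and 47.9, 46.5 and 42.2 CPM in 14B5. Every KO library lay above every WT library. The increase was 18.4% in KO versus WT (log2 0.24 ± 0.0708, 95% interval 0.09 to 0.40, adjusted p = 0.0246; exact permutation p = 0.0238). It was 0.20 ± 0.0581 in 11H1 (adjusted p = 0.01) and 0.28 ± 0.0629 in 14B5 (adjusted p = 0.00376). 11H1 minus 14B5 came to −0.10 ± 0.0584 (interval −0.23 to 0.03, adjusted p = 0.157). The pooled call was lost without WT library 1 (adjusted p = 0.127), WT library 2 (0.0767) or a filter on low counts (0.062), and the 11H1 call without WT library 1 (0.0537) or 11H1 library 1 (0.0645).

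*DYRK2* and *DYRK4* did not pass the test in any of the 4 comparisons. *DYRK2* (ENSG00000127334.10; chr12:67648338-67665406, plus strand) was at 20.4, 21.4 and 24.7 CPM in WT, 23.5, 22.7 and 23.3 CPM in 11H1, and 25.6, 25.3 and 22.5 CPM in 14B5. The 3 groups overlapped, and the interval of KO versus WT was −0.07 to 0.28 (log2). *DYRK2* passed in each clone when WT library 3, the highest of the WT libraries, was left out (11H1 0.15, adjusted p = 0.0374; 14B5 0.22, adjusted p = 0.0287). *DYRK4* (ENSG00000010219.13; chr12:4562204-4615302, plus strand) was at 19.8, 18.2 and 18.1 CPM in WT, 17.6, 17.3 and 16.7 CPM in 11H1, and 18.9, 17.0 and 18.7 CPM in 14B5, with an interval of −0.24 to 0.07 for KO versus WT. The protein-coding gene *AC005832.4* shares 143 exon bases of *DYRK4* on the same strand, and the expected count of *DYRK4* was not a whole number in 7 libraries, so that some of its reads were divided between genes.

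*CLK2*, a splicing kinase that also acts in insulin signaling (ENSG00000176444.19; chr1:155262868-155278491, minus strand), had the smallest adjusted p of the 9 genes in 11H1 versus WT. Its level was 71.6, 69.1 and 68.5 CPM in WT, 106, 112 and 105 CPM in 11H1, and 81.8, 75.7 and 81.0 CPM in 14B5. The 3 groups did not overlap, and 14B5 lay between WT and 11H1. *CLK2* was 1.55-fold higher in 11H1 (log2 0.64 ± 0.0464, 95% interval 0.53 to 0.74, adjusted p = 2.6e-07) and 1.13-fold higher in 14B5 (0.17 ± 0.0492, interval 0.06 to 0.28, adjusted p = 0.0139). The clones differed by 0.45 ± 0.0475 (adjusted p = 6.97e-06), and in KO versus WT the difference was 0.43 ± 0.134 (adjusted p = 0.0347; exact permutation p = 0.0238).

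The pooled *CLK2* call was lost on leaving out any single WT library (adjusted p = 0.0983, 0.102 and 0.105) or any single 11H1 library (0.0591, 0.0533 and 0.0711), and with at least 10 counts required in every library (0.0509). The 14B5 call was lost without WT library 2 (0.0522). *HCN3*, a channel gene on the opposite strand that overlaps the *CLK2* locus without sharing exon bases, was at 2.90 CPM in WT, 5.50 in 11H1 and 3.09 in 14B5. It was higher in 11H1 versus WT (0.92, adjusted p = 7.49e-05) and did not pass in 14B5 (0.07, adjusted p = 0.696) or in KO versus WT (0.56, adjusted p = 0.139). At 99 to 287 counts per library *HCN3* was far below *CLK2*, at 2821 to 5802. The processed pseudogene *CLK2P1* held 22 to 57 counts per library. The part of *HCN3* and *CLK2P1* reads in the level of *CLK2* was not tested.

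*CLK4* (ENSG00000113240.13; chr5:178602664-178630615, minus strand) differed between the clones. Its level was 10.1, 9.89 and 11.2 CPM in WT, 13.7, 13.5 and 14.7 CPM in 11H1, and 8.58, 9.77 and 9.14 CPM in 14B5. All 11H1 libraries were above and all 14B5 libraries below those of WT. *CLK4* was 1.35-fold higher in 11H1 (log2 0.43 ± 0.0753, adjusted p = 0.000304). In 14B5 the difference was −0.20 ± 0.0819 (interval −0.38 to −0.01, adjusted p = 0.0675), and 11H1 exceeded 14B5 by 0.61 ± 0.0708 (adjusted p = 1.36e-05). Pooling both clones gave 0.15 ± 0.186 (interval −0.26 to 0.57, adjusted p = 0.567), a mean of 2 clones on opposite sides of WT.

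*CLK3* (ENSG00000179335.18; chr15:74598500-74645414, plus strand) was lower in 14B5 only among the 2 clones tested. Its level was 64.0, 66.8 and 62.0 CPM in WT, 67.1, 64.3 and 64.5 CPM in 11H1, and 51.4, 55.8 and 57.5 CPM in 14B5. The 14B5 libraries lay below the other 6, and 11H1 overlapped WT. *CLK3* fell by 15.5% in 14B5 (log2 −0.24 ± 0.0554, adjusted p = 0.00429), differed by 0.03 ± 0.0488 in 11H1 (interval −0.08 to 0.14, adjusted p = 0.603), and the difference between the clones itself was 0.26 ± 0.051 (adjusted p = 0.000876). *EDC3*, a decapping factor on the opposite strand, shares 701 exon bases with *CLK3* and was at 67.6 CPM in WT, 80.5 in 11H1 and 73.5 in 14B5. Where reads are counted without strand these 2 genes cannot be told apart in the shared bases, and whether strand was used in counting is not given in the sources used here.

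*CLK1* (ENSG00000013441.16; chr2:200853009-200864744, minus strand) was at 145, 132 and 142 CPM in WT, 151, 153 and 143 CPM in 11H1, and 142, 135 and 133 CPM in 14B5. Each clone overlapped WT, and neither comparison with WT passed (11H1 0.10 ± 0.0512, adjusted p = 0.115; 14B5 −0.05 ± 0.052, adjusted p = 0.468). The interval of KO versus WT was −0.11 to 0.17. The clones differed by 0.13 ± 0.0455 (adjusted p = 0.0262), a call that was lost without 11H1 library 1 (adjusted p = 0.0882), 11H1 library 2 (0.105), 14B5 library 2 (0.0945) or 14B5 library 3 (0.065), or without a filter on low counts (0.082).

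In 11H1 versus 14B5, 5 of 9 genes were called, all higher in 11H1, against 63.7% of all genes tested (31.6% higher and 32.1% lower). They were *DYRK1B* and all 4 CLK genes, whereas *DYRK1A*, *DYRK2*, *DYRK3* and *DYRK4* did not pass. The differences of the CLK genes were 0.13 (*CLK1*), 0.45 (*CLK2*), 0.26 (*CLK3*) and 0.61 (*CLK4*). The groups did not overlap for these 5 genes, and the share of all genes without overlap was not counted for this comparison. The 3 libraries of 11H1 were also the 3 with the highest mitochondrial share, and the part of this in the difference between the clones was not tested.

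**Figure D2:**
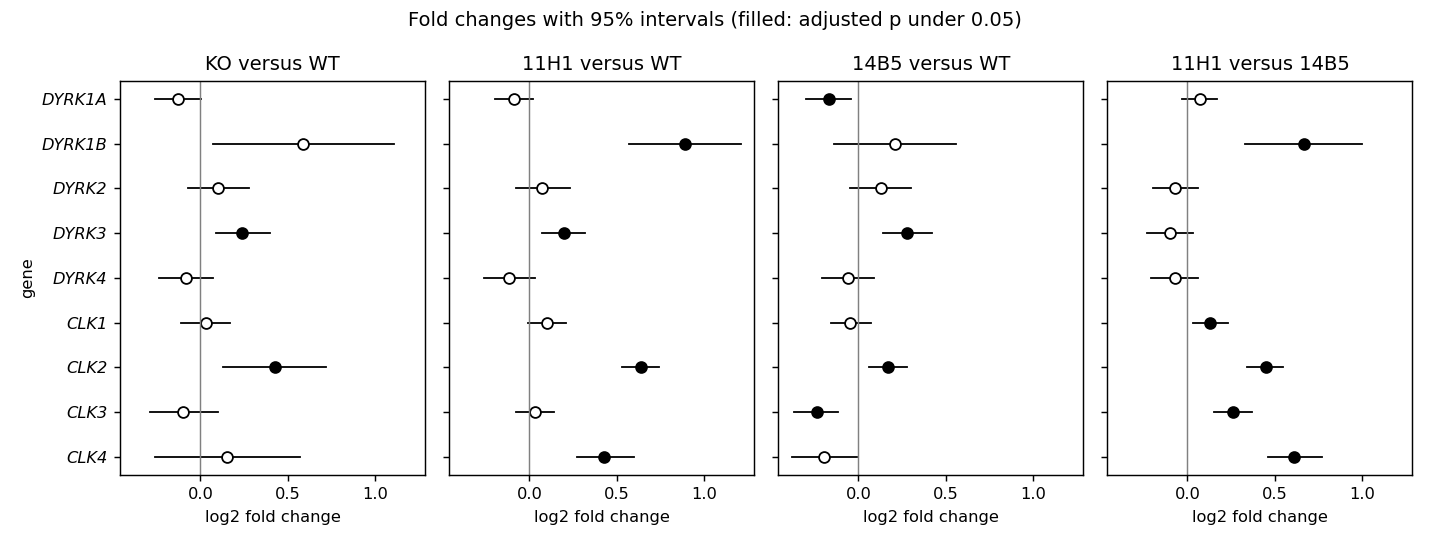
Log2 fold change (x axis) of the 9 genes (y axis) in the 4 comparisons, with 95% intervals and filled points where the adjusted p was under 0.05. *CLK2* is filled in every panel, *DYRK3* in the 3 comparisons with WT, and the 4 CLK genes and *DYRK1B* lie to the right of 0 in 11H1 versus 14B5.

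Levels of different genes can be compared only per length, for which CPM was divided by the length of all exons of the gene in kb. That length was 26602 bases for *DYRK1A* and 4336 for *DYRK3*, and 20443 for *CLK3* and 3670 for *CLK2*. The lengths of the transcripts in use in these cells were not measured. The order of genes and the shares of each family below therefore depend on this choice of length. In WT, *DYRK3* (8.55 ± 0.465 CPM per kb) and *DYRK1A* (7.66 ± 0.48) led the DYRK family, followed by *DYRK4* (2.65 ± 0.136), *DYRK2* (2.34 ± 0.233) and *DYRK1B* (0.42 ± 0.0357; SD, n = 3 each). *DYRK3* and *DYRK1A* overlapped in their ranges (8.08 to 9.01 and 7.36 to 8.21), as did *DYRK4* and *DYRK2* (2.57 to 2.81 and 2.15 to 2.6), and *DYRK1B* was apart from the rest. Of the CLK genes, *CLK1* (27.0 ± 1.34) was above *CLK2* (19.0 ± 0.446), *CLK3* (3.14 ± 0.119) and *CLK4* (1.31 ± 0.084), with no overlap between neighbours.

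As shares of the summed DYRK level, *DYRK1A* made up 34.8% to 36.1% in WT libraries, 30.6% to 32.3% in 11H1 and 29.7% to 30.0% in 14B5, and *DYRK3* 38.6% to 40.4%, 42.4% to 44.4% and 44.7% to 46.4%. *DYRK1B* was 1.70% to 2.19% of the family in WT and 3.42% to 3.48% in 11H1. Per length, *DYRK1B* reached 4.73% to 6.19% of the level of *DYRK1A* in WT, 10.6% to 11.3% in 11H1 and 6.57% to 7.86% in 14B5. Per kb of exon, the transcript of the closest relative thus stayed at 11.3% of the *DYRK1A* transcript or less in all 9 libraries.

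The summed DYRK level was 21.6 ± 1.01 CPM per kb in WT, 22.5 ± 0.495 in 11H1 and 23.0 ± 1.21 in 14B5, with overlapping ranges. The summed CLK level was 50.5 ± 1.58 in WT, 63.2 ± 1.85 in 11H1 and 52.0 ± 1.32 in 14B5. The 11H1 sum, 61.3 to 65.0, was above the 2 other groups, and *CLK2* took most of that difference, going from 36.9% to 38.5% of the CLK sum in WT to 45.9% to 47.1% in 11H1. In 11H1, *CLK2* (29.4 ± 1.05) and *CLK1* (28.8 ± 1.01) overlapped, whereas with the longest coding transcript as length, chosen after the data had been seen, *CLK1* remained above *CLK2* in 11H1 (73.5 ± 2.57 and 49.8 ± 1.77 CPM per kb) and *DYRK3* above *DYRK1A* in WT (15.9 ± 0.866 and 11.6 ± 0.727). With that length *DYRK4* (5.53 to 6.06 CPM per kb) and *DYRK2* (2.29 to 2.77) no longer overlapped in WT.

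**Figure D3:**
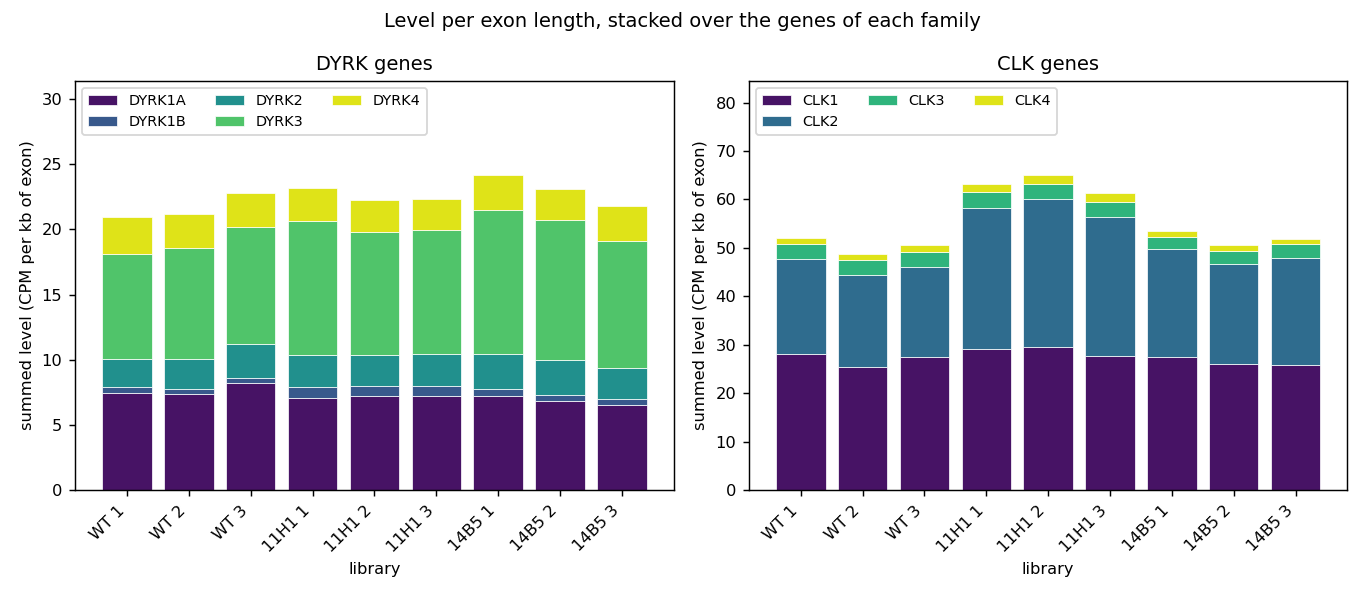
Level per kb of exon (y axis, CPM per kb, from 0) in each of the 9 libraries (x axis), stacked over the DYRK genes (left) and the CLK genes (right). The DYRK stacks stay between 20.9 and 24.2 in all libraries, and the CLK stacks reach 61.3 to 65.0 in 11H1, with a larger *CLK2* block.

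The 9 genes lie on 7 chromosomes, *CLK2* and *DYRK3* both on chr1 and *DYRK2* and *DYRK4* both on chr12, and the genes around each were examined because clones can differ in the level of whole regions. Genes reaching within 5 Mb of *DYRK1A* on chr21 had a median log2 difference of −0.16 in 11H1 (78 genes) and −0.15 in 14B5 (76 genes), beside −0.09 and −0.17 for *DYRK1A* itself. Over the whole 5 Mb window *DYRK1A* thus lay in the middle of its neighbours. Of these, 34 of the 78 lay above it in 11H1 and 40 of the 76 in 14B5. Near *DYRK1A* most genes were lower than it. Among tested genes starting within 0.98 Mb, only the gene at 0.228 exceeded it in 11H1. In 14B5 only those at 0.127 and 0.288 did. The gene starting 0.098 Mb away was at −0.477 in 11H1 and −0.43 in 14B5. This narrower window was chosen after the values were seen. Copy number was not measured in these libraries, and its part in the level of *DYRK1A* was not tested.

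For *CLK2* the neighbours had a median of 0.04 in 11H1 (199 genes, quartiles −0.23 and 0.36) and −0.05 in 14B5 (198 genes), beside its own 0.64 and 0.17. Only 27 of the 199 and 42 of the 198 exceeded *CLK2*. For *DYRK3* the median was −0.13 in both clones (87 genes each), beside its own 0.20 and 0.28, and 19 of 87 exceeded it in each. *DYRK1B* stood at 0.89 in 11H1 with a neighbour median of 0.14 (244 genes, 21 above it), and *CLK4* at 0.43 with a neighbour median of −0.05 (75 genes, 17 above it). *CLK3* in 14B5, at −0.24, was within the quartiles of its 85 neighbours (−0.39 and 0.12).

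**Figure D4:**
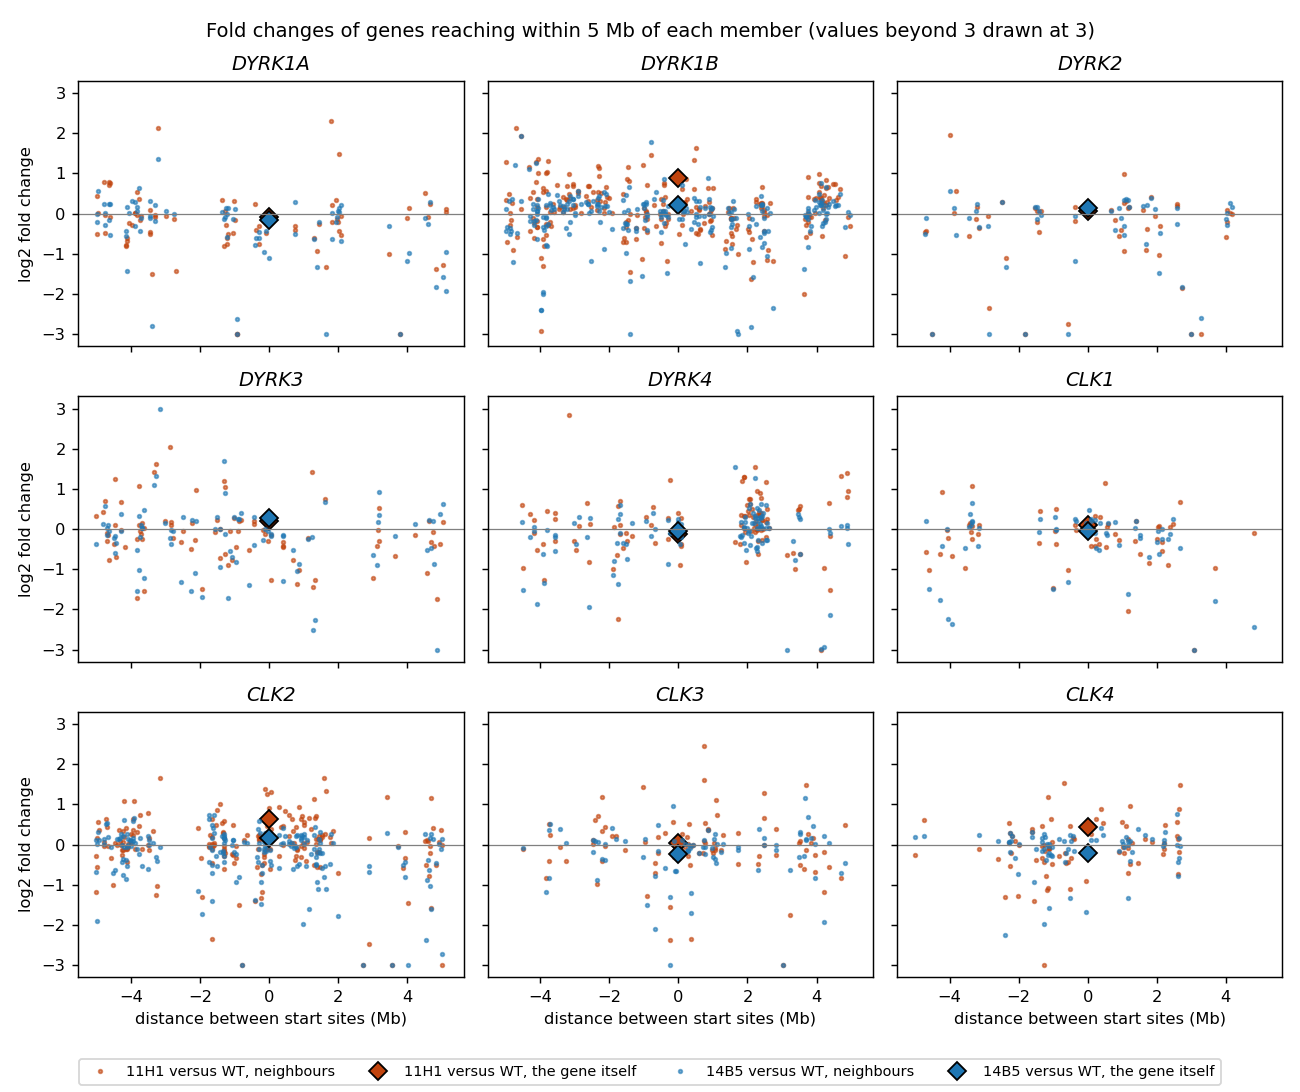
Log2 fold change (y axis) of genes reaching within 5 Mb of each of the 9 genes against the distance between start sites in Mb (x axis), for 11H1 versus WT (red) and 14B5 versus WT (blue), with the gene itself as a diamond. The diamonds of *CLK2*, *DYRK1B* and *CLK4* in 11H1 lie above most of the points around them, and those of *DYRK1A* lie among them.

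The genes whose levels ran most like those of each member were sought among 9784 or 9785 genes that averaged 10 CPM or more. Pearson's r is over log2 CPM of 9 libraries that share their 3 groups, and is given as a description. *DYRK1A* ran most like *ZNF175* (r = 0.971), *MCCC2* (0.967) and *AHCYL2* (0.956), and 38 genes reached an r of 0.9. *DYRK1B* ran most like *CCNL1*, a cyclin of splicing (0.993; 62.7 CPM in WT, 102 in 11H1 and 71.9 in 14B5), and *CLK2* most like *NPIPA1* (0.994), a member of a multigene family whose reads can be split between copies. For *CLK4* the gene was *PPIP5K1* (0.989), for *DYRK2* *NUMB* (0.979) and for *CLK3* *PPM1F* (0.975). The likeness was looser for *CLK1* (*ODR4*, 0.904) and *DYRK4* (*AUP1*, 0.891), whereas 849 genes reached an r of 0.9 with *CLK2* and 694 with *DYRK1B*.

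SR proteins are the substrates of CLK kinases. Of 11 SR protein genes tested, 7 were higher and 0 lower in KO versus WT, 10 and 0 in 11H1, and 6 and 0 in 14B5, where 14.3%, 31.8% and 24.9% of all genes were higher. Whether the list stands apart from other genes was not tested. The median log2 difference of these genes was 0.24, 0.30 and 0.20, beside 0.022, −0.00656 and −0.0137 over all genes tested. *SRSF10*, a factor that represses splicing when dephosphorylated, was at 208 to 221 CPM in WT, 333 to 338 in 11H1 and 265 to 291 in 14B5 (KO versus WT 0.51 ± 0.0933, adjusted p = 0.0023). *SRSF6* was at 168 to 187, 295 to 305 and 200 to 220 CPM (0.52 ± 0.159, adjusted p = 0.0305), and *SRSF1* at 504 to 518, 610 to 641 and 602 to 662 CPM (0.30 ± 0.0548, adjusted p = 0.00234). These 3 genes were higher in both clones with no overlap with WT. In 11H1 versus 14B5, 4 of the 11 SR protein genes were higher and 1 was lower, against 31.6% and 32.1% of all genes.

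Of the other CMGC kinases related to these families, HIPK, PRPF4B and SRPK, 7 of 8 were tested and 1 was called in KO versus WT, against 32.0% of all genes. *SRPK2*, which phosphorylates SR proteins in the cytoplasm, fell by 0.55 ± 0.0934 (log2, adjusted p = 0.00162), from 26.5 to 30.5 CPM in WT to 20.3 to 21.6 in 11H1 and 17.4 to 17.8 in 14B5. In 11H1 3 of the 7 were higher and 1 was lower, against 31.8% and 32.8% of all genes. In 14B5 0 of 6 were higher and 2 were lower, against 24.9% and 28.7%. The clones themselves differed for 6 of 7, 4 higher and 2 lower in 11H1, against 63.7% of all genes.

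Of 25 partners and substrates of DYRK1A, 5 were higher and 5 lower in KO versus WT, with a median of 0.05, against 32.0% of all genes called (14.3% higher and 17.7% lower). *DCAF7*, the adaptor that binds DYRK1A and DYRK1B, was at 285 to 325 CPM in WT, 276 to 294 in 11H1 and 289 to 302 in 14B5 (−0.05 ± 0.06, adjusted p = 0.579). *LIN52*, the DREAM subunit that DYRK1A phosphorylates, was at 19.2 to 22.5, 21.2 to 22.4 and 25.8 to 27.0 CPM (0.22 ± 0.0991, adjusted p = 0.119), and it was higher in 14B5 alone (0.33 ± 0.0637, adjusted p = 0.0015). The adaptor was thus not detectably different, and the substrate differed in 1 clone, with 11H1 below 14B5 by 0.27 on the log2 scale (−0.27 ± 0.0505, adjusted p = 0.000644).

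Among those of the 25 past the threshold, the largest rises were those of *TROAP*, a mitotic spindle protein (0.75 ± 0.226, adjusted p = 0.0291), *NFATC1*, a transcription factor that leaves the nucleus when DYRK1A phosphorylates it (0.59 ± 0.0794, adjusted p = 0.000388), and *SIRT1*, a deacetylase (0.55 ± 0.0897, adjusted p = 0.00126). The largest falls past the threshold were those of *FAM117B* (−0.77 ± 0.0956, adjusted p = 0.00023), *SPRY2*, an inhibitor of receptor tyrosine kinase signaling (−0.55 ± 0.165, adjusted p = 0.0283), and *CCND1*, a D-type cyclin (−0.33 ± 0.108, adjusted p = 0.04). *NFATC1* was at 17.1 to 18.9 CPM in WT, 25.9 to 29 in 11H1 and 23.9 to 27.8 in 14B5, and *FAM117B* at 35.6 to 43.2, 20.1 to 21.9 and 21.1 to 25.4 CPM. Both moved the same way in both clones with no overlap with WT, whereas *TROAP* rose further in 11H1 than in 14B5 (0.77 ± 0.0464 between the clones, adjusted p = 8.17e-08).

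Of 15 partners and substrates of DYRK1B to DYRK4, 2 were higher and 1 lower in KO versus WT, with a median of 0.12, against 32.0% of all genes called. *DCAF1*, part of the ubiquitin ligase for which DYRK2 is a scaffold, rose by 0.33 ± 0.0685 (log2, adjusted p = 0.00442), from 73.7 to 83.3 CPM in WT to 100 to 107 in 11H1 and 91.4 to 96.4 in 14B5. *RANBP9*, which binds DYRK1B, fell by 0.30 ± 0.0653 (−0.30, adjusted p = 0.00636). Both genes were past the threshold in the same direction in each clone.

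**Figure D5:**
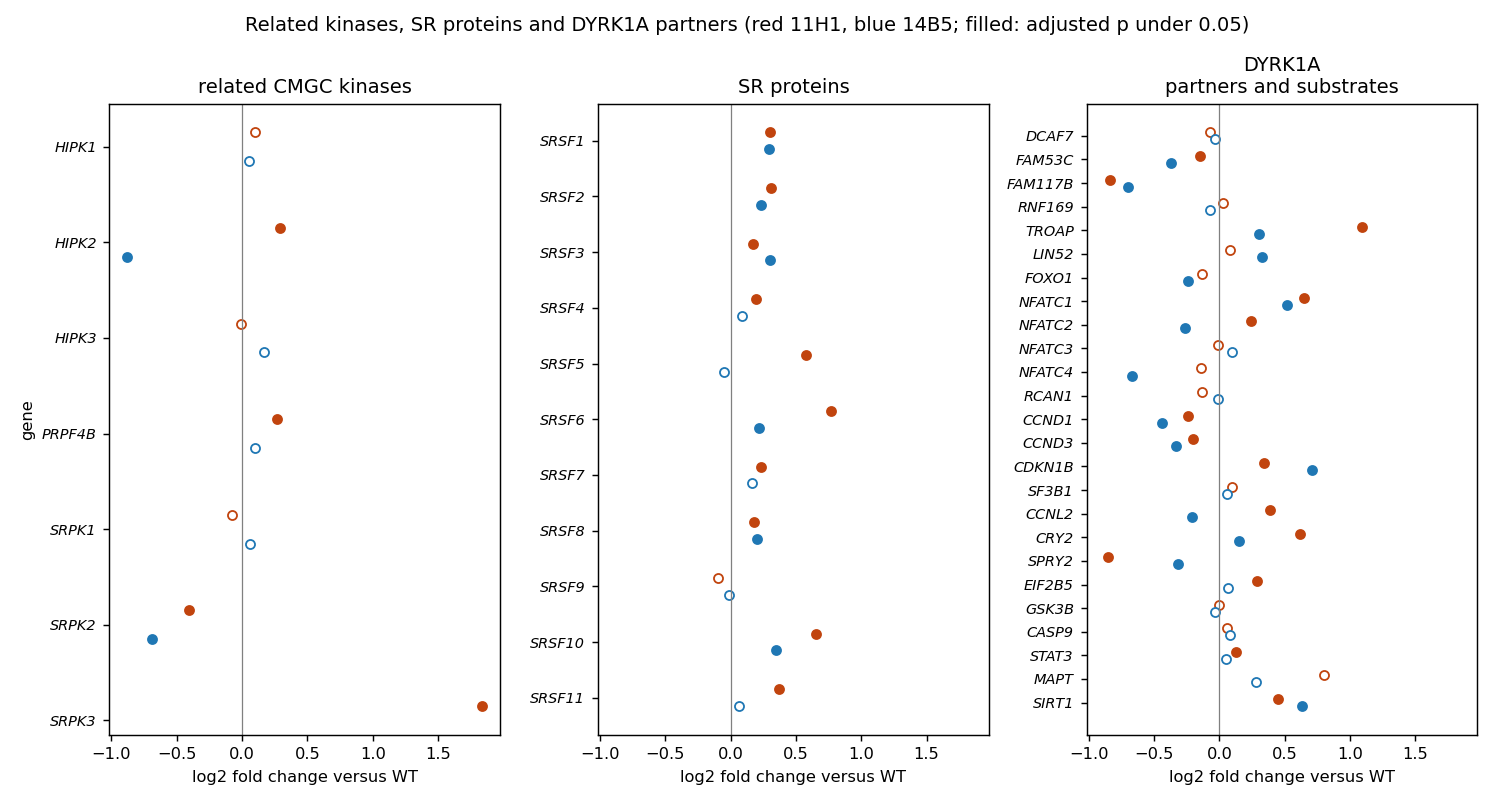
Log2 fold change versus WT (x axis) of the tested related kinases, SR protein genes and partners and substrates of *DYRK1A* (y axis), in 11H1 (red) and 14B5 (blue), with filled points where the adjusted p was under 0.05. The SR protein points lie mostly to the right of 0, with 10 filled in 11H1 and 6 in 14B5, while those of the *DYRK1A* partners lie on both sides.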

How the data were processed

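RNA-seq was performed on SET2 cells in 9 libraries. The deposited values are expected counts from RSEM, which divides a read that fits more than 1 gene between them, and are not normalized. The submitters' processing notes name STAR 2.7.9a, Picard, RSEM and GRCh38, and the annotation release is not given in the sources used here. The paper describes a stranded library kit and the labels a different kit. The paper uses 5 KO libraries and 6 are analysed here.

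Of 60754 entries, 92 spike-ins were at 0 in every library and were left out. Expected counts were rounded, filtered with filterByExpr, scaled by TMM and compared with edgeR 4.0.16 (quasi-likelihood F test, R 4.3.3), with Benjamini-Hochberg adjustment over all genes tested and a threshold of 0.05. CPM use the TMM factors. A 2-sided exact permutation test of mean CPM was added per gene, with a smallest possible p of 0.0119 (6 libraries and 3) or 0.1 (3 and 3). Coordinates, exon lengths and neighbours come from GENCODE v29 (GRCh38), which held 58587 of the genes (96.6%), and upstream sequences from RefSeq. Within groups, chi-square per gene between library pairs was 3.84 to 34.7, above sampling noise, so none was a copy.

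Beside the 9 genes, the text names up to 3 rises and 3 falls per list (past the threshold in KO versus WT, mean of at least 1 CPM), *DCAF7*, *LIN52*, and the gene most correlated with each member (3 for *DYRK1A*). Some genes that this rule covers are not reported here. Other genes (markers, overlapping genes, pseudogenes) were named after their values were seen. The members and lists were chosen with earlier results of these data known. Alternatives were DESeq2 1.42.0 (size factors, Wald test), limma-voom (limma 3.58.1), TMM without mitochondrially encoded genes, other filters on low counts, a replicate block, protein-coding genes only, 1 fit of 3 groups and leaving out each library. The steps were tested on simulated data. The study's guide RNA and the protein sequences are not used here.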

Additional observations from a re-analysis of the deposited data

Results flagged for a closer look

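5 genes were singled out because the effects of the 2 KO clones differed in a test of the difference itself, 11H1 versus 14B5 (edgeR quasi-likelihood, adjusted over all 16352 genes tested, 3 libraries each). On the log2 scale 11H1 exceeded 14B5 by 0.67 for *DYRK1B* (adjusted p = 0.00226), 0.45 for *CLK2* (6.97e-06), 0.61 for *CLK4* (1.36e-05), 0.26 for *CLK3* (0.000876) and 0.13 for *CLK1* (0.0262). The *CLK1* difference lost its call without 11H1 library 1 (0.0882), 11H1 library 2 (0.105), 14B5 library 2 (0.0945) or 14B5 library 3 (0.065), and without a filter on low counts (0.082). For *CLK4* the means lay on opposite sides of WT (10.4 CPM), at 14.0 in 11H1 and 9.16 in 14B5, and for *CLK3* 14B5 (54.9 CPM) lay below WT (64.3) while 11H1 (65.3) did not differ detectably from it. In the same comparison 63.7% of all genes tested passed the threshold.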

How the results depend on the processing

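The number of the 9 genes past the threshold in KO versus WT, 2 as reported, was 1 without a filter on low counts (*DYRK3* at adjusted p = 0.062), 1 with at least 10 counts in every library (*CLK2* at 0.0509), 4 in 1 fit of the 3 groups and 0 to 3 on leaving out each library. In that fit of 3 groups *DYRK1A* (0.0251) and *DYRK1B* (0.00252) also passed, and 10245 genes were called in place of 5471. The replicate numbers did not pair the libraries (correlations of same-numbered libraries between −0.234 and 0.099), and with the replicate number as a block 0 of the 9 were called in KO versus WT (*DYRK3* 0.072, *CLK2* 0.0841), among 3937 genes, and *DYRK1A* in 14B5 was not called (0.0825), and the block ended no other call. limma-voom, DESeq2 (size factors or Wald test) and TMM without mitochondrially encoded genes left all 4 counts of members as reported. With protein-coding genes only, *CLK1* in 11H1 (0.04999), *CLK4* in 14B5 (0.0417) and *DYRK1A* between the clones (0.0482) passed, and without a filter *DYRK1A* in 14B5 (0.072) and *CLK1* between the clones (0.082) did not. 3 differences near 0 changed sign on leaving out a library: *CLK1* in KO versus WT (range −0.000652 to 0.0547), *CLK3* in 11H1 (−8.55e-05 to 0.0511) and *DYRK4* in 14B5 (−0.0765 to 0.00741). Leaving out 14B5 library 3 also brought *DYRK3* past the threshold between the clones (−0.15, adjusted p = 0.0238), and *DYRK1A* in 14B5 was lost without 14B5 library 2 (0.114) or 3 (0.104). With the longest coding transcript as length in place of all exons, a choice made after the data had been seen, the ratio of *CLK1* to *CLK2* per length in 11H1 was 1.47 in place of 0.979, that of *DYRK3* to *DYRK1A* in WT 1.37 in place of 1.12, and that of *DYRK4* to *DYRK2* in WT 2.32 in place of 1.15. Of the single-gene differences under the planned settings, 312 kept direction and call, 5 gained a call and 7 lost it, and on leaving out libraries 217 kept both, 5 gained, 18 lost and 3 changed sign. The cause was not tested. *DYRK1B*, with 51 to 139 counts, is the gene that depth limits most.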
